A study of Mus musculus with 8 samples.

Results

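The NF-kB subunits and their inhibitors were examined as a family of 10 genes in mouse splenic CD4+ T cells. The genes were chosen by name, with no cut on a measured value but with earlier results of these data known. Members were the 5 subunits Nfkb1, Nfkb2, Rel, Rela and Relb, the 3 classical inhibitors Nfkbia, Nfkbib and Nfkbie, and the 2 nuclear inhibitors Nfkbid and Nfkbiz. They are 10 of 27179 genes in the deposited table, and all 10 were among the 12605 genes tested, those with a mean of at least 0.5 RPKM (reads of a gene scaled by the length of its transcript and by the total of the library). The fewest reads behind any one value of theirs was 576, for Relb, and the most was 27886, for Nfkb1, which puts the counting error alone between 0.599% and 4.17% of a value.

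Mice of the strain C.Cg-Foxp3tm2Tch/J, which carries a reporter at the Foxp3 locus, were used throughout. Parents drank control water or water with 10 ppm cadmium (Cd), and dams were moved to control water within hours of giving birth, so that exposure of the parents ended with pregnancy. Offspring of these parents are called Cd offspring here, which does not say that Cd reached them. Splenic CD4+ T cells of offspring aged 8 weeks were enriched by negative selection and sorted by flow cytometry, and then either lysed at once (0 hours) or cultured for 16 hours with beads that carry antibodies to CD3 and CD28, in place of antigen and co-stimulation. The 4 groups, with 2 libraries each, numbered 6 and 7 in the labels, were unstimulated and stimulated cells of control offspring and unstimulated and stimulated cells of Cd offspring. A figure legend of the study describes the sequenced cells of control offspring as CD4+CD25- conventional T cells. Because unstimulated cells were not cultured, stimulation and 16 hours of culture cannot be told apart. Parents were mated in pairs, and the study counts a litter as its biological replicate, but the labels do not tie the libraries to litters or animals, so the p-values measure the spread between these libraries, which may be technical.

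Libraries held 15542732 to 25486791 reads counted on genes. The summed level of 9 CD4+ T cell genes was 3148 to 3389 RPKM in unstimulated and 2102 to 2214 RPKM in stimulated libraries. Of 5 B cell genes Ms4a1, and of 5 myeloid genes Cd14, were at 0 in every library, and 4 dendritic cell genes summed to under 1 RPKM in each. The B cell list summed to 3.12 to 4.89 RPKM, the myeloid list to 0.416 to 2.06 RPKM, 2 CD8 genes to 9.52 to 11.8 RPKM, 3 NK cell genes to 0.147 to 4.47 RPKM and 3 erythroid genes to 0.365 to 1.72 RPKM. Of the CD8 genes, Cd8a was at 0.0581 to 0.160 RPKM and Cd8b1 at 9.40 to 11.7 RPKM. In every library Cd79a was the largest part of the B cell sum, Itgam of the myeloid, Klrb1c of the NK cell and Alas2 of the erythroid sum. The summed level of 4 regulatory T cell genes was 40.3 to 50.8 RPKM in unstimulated and 237 to 253 RPKM in stimulated libraries. The largest part was Tnfrsf18, at 27.4 to 33.6 RPKM in unstimulated and 191 to 197 RPKM in stimulated libraries. Ctla4 was at 6.37 to 9.24 and 35.7 to 44.3 RPKM. Foxp3 was at 4.48 to 5.08 and 5.98 to 7.69 RPKM, and Ikzf2 at 1.84 to 3.21 and 2.53 to 3.75 RPKM. The summed level of 5 activation genes was 158 to 211 and 737 to 813 RPKM. Of the sex-linked genes, Xist was at 49.3 to 67.1 RPKM and Eif2s3y and Kdm5d were at 0 in every library, as in female cells. The part of the cells and states that these lists mark in the changes described here was not tested. In bulk RNA, fewer cells that express a gene and less of its RNA per cell cannot be told apart.

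NF-kB is a family of dimeric transcription factors built from the products of the 5 subunit genes. In a resting T cell the dimers are held in the cytoplasm by the IkB inhibitors. Signals from the T cell receptor and CD28 are passed on to the IkB kinase (IKK), which marks the inhibitors for destruction by a ubiquitin ligase, and the freed dimers enter the nucleus. Several genes of the family, Nfkbia above all, are themselves textbook targets of NF-kB, so the pathway feeds back on its own parts. The libraries measure RNA. The step that switches NF-kB on acts on proteins and was not analysed here.

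The stretches of promoter that hold the 10-base kappa-B consensus, the sequence that NF-kB dimers bind, are shown first because they are the family's own link to its products. RefSeq promoter windows of GRCm38.p6, 250 bases before to 50 bases after an annotated start, were at hand for 7 of the 10 genes: Nfkb2, Rel, Rela, Nfkbia, Nfkbib, Nfkbie and Nfkbid. Not covered were Nfkb1, Relb and Nfkbiz. The consensus was searched on both strands, and overlapping matches were merged in print. It was found in at least 1 window of 5 of these 7 genes, as against 5.14% of 27025 genes with a window and 4.51% of all 32851 windows. A match is a description of the letters and does not show that the site is bound. The 250 bases before the start site are given 5' to 3' on the gene's strand for 4 genes, with matches in capitals, and for Rela, in which no window letters match, as the contrast.
Nfkb2, chr19:46304487-46304736, plus strand: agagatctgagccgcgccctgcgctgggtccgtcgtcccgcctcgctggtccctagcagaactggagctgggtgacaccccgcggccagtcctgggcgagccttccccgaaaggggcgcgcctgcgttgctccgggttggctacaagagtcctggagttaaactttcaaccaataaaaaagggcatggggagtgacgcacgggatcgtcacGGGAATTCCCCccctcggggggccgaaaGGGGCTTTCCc
Rel, chr11:23770970-23771219, minus strand: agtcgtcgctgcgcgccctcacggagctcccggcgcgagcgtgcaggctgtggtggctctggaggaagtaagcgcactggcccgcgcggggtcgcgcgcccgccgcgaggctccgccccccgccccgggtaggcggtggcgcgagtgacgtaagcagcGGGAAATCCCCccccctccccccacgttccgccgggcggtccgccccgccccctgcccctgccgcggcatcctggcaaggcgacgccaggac
Nfkbid, chr7:30422156-30422405, plus strand, the second of 3 annotated starts: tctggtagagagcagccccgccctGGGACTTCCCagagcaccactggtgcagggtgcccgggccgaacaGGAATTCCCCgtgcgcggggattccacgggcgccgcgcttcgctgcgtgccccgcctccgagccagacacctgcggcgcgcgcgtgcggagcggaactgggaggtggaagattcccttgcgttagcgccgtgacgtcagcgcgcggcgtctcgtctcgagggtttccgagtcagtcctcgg
Nfkbia, chr12:55492648-55492897, minus strand: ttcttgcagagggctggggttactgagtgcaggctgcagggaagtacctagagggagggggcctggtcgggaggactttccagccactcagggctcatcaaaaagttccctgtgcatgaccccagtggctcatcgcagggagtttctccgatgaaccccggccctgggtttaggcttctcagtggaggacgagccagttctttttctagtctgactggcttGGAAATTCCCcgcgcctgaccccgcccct
Rela, chr19:5637291-5637540, plus strand: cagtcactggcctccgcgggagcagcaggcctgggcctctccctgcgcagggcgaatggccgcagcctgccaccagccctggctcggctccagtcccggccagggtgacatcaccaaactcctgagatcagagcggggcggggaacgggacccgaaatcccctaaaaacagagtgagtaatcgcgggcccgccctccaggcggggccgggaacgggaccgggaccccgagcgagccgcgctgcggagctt

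In the Nfkb2 window the first letters of the matches lay at positions -39, -38 and -11 counted from the start site, the first 2 being overlapping matches on opposite strands. In the Rel window they lay at -92 and -91, likewise overlapping, and in the Nfkbid window at -226 and -181. The match of Nfkbia lay at -29 and that of Nfkbie at -106. The other 2 windows of Nfkb2, which overlap, held 2 matches and 1 match, with 1 site shared, and the other 2 of Nfkbid held 0. The windows of Rela and Nfkbib held no match, which says only that these letters are not in these windows. Of the 5 genes with a match, Nfkb2, Rel and Nfkbid rose more than 2-fold on stimulation, Nfkbie rose less and Nfkbia did not pass the test. Of the genes without a match, Nfkbib also rose by less than 2-fold and Rela did not pass the test, as described next.

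On stimulation, 4 of the 5 subunits and the nuclear inhibitor Nfkbid rose and the other nuclear inhibitor, Nfkbiz, fell, both in control and in Cd offspring. Nfkbib and Nfkbie rose by less than 2-fold, and Rela and Nfkbia did not pass the test. Of the 10 genes, 6 had an adjusted p under 0.01 with a change above 2-fold in control offspring, 5 higher and 1 lower. The same rule called 18.7% of all genes tested, 11.5% higher and 7.17% lower. In Cd offspring 6 of the 10 were called as well, again 5 higher and 1 lower, against 18.6% of all genes, 11.4% higher and 7.24% lower. The 10 genes had a median log2 fold change of 1.14 in control and 1.15 in Cd offspring, beside 0.07 and 0.05 over all genes. At an adjusted p under 0.01 with no limit on the fold, 8 of 10 passed in each, 7 higher and 1 lower. Over all genes 51.7% passed in control offspring, 29.9% higher and 21.8% lower, and 52.5% in Cd offspring, 30.2% higher and 22.3% lower. The stimulated libraries did not overlap the unstimulated ones for 9 of the 10 genes in control offspring, 7 higher and 2 lower, against 83.1% of all genes, 46.0% higher and 37.2% lower. In Cd offspring this held for 8 of the 10, 7 higher and 1 lower, against 83.1% of all genes, 44.7% higher and 38.4% lower. All p-values are from limma on log2(RPKM + 0.1), adjusted after Benjamini and Hochberg over all genes tested.

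**Figure D1:**
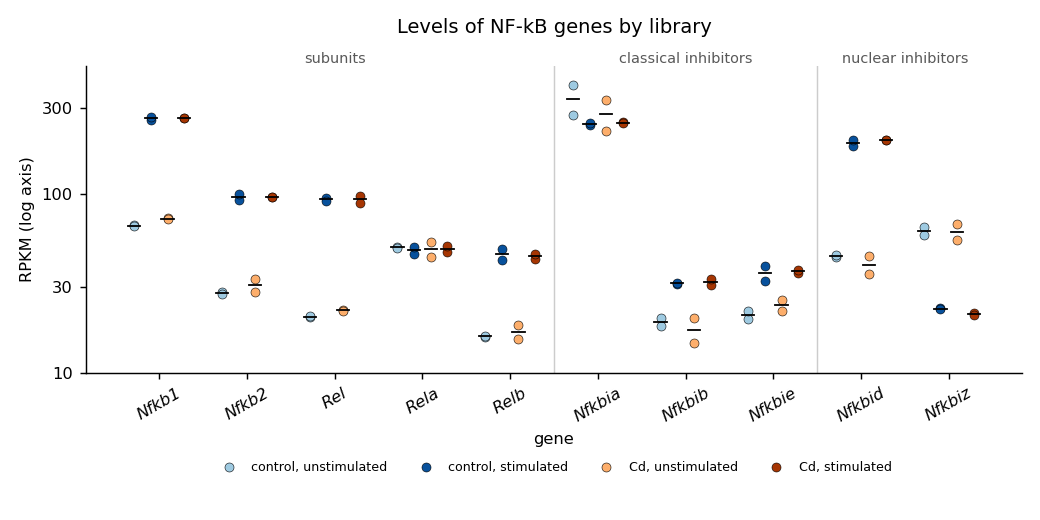
RPKM of the 10 genes (log axis) in each of the 8 libraries, with a point for each library, a short line for the mean of the 2 libraries of a group, and colour for the group. Stimulated libraries lie above unstimulated ones for Nfkb1, Nfkb2, Rel, Relb, Nfkbib, Nfkbie and Nfkbid and below them for Nfkbiz, Rela lies between 44.3 and 54.0 RPKM throughout, and the unstimulated libraries of Nfkbia lie far apart.

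Nfkb1 (NCBI gene 18033, chr3:135584655-135691969) encodes p105, which is processed to p50 and can itself hold dimers in the cytoplasm. It measured 67.0 and 65.9 RPKM in the unstimulated libraries of control offspring and 259 and 269 RPKM in the stimulated ones. In Cd offspring it measured 72.9 and 72.7 RPKM before and 266 and 266 RPKM after stimulation. The groups lay far apart and the SD between the libraries of a group was at most 2.74% of the mean. The log2 fold change was 1.99 (SE 0.043, adjusted p = 1.87e-07, limma) in control and 1.87 (SE 0.043, adjusted p = 2.13e-07) in Cd offspring.

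Rel (gene 19696, chr11:23736847-23770969) encodes c-Rel, the subunit best known for its role in lymphocytes and at the Il2 promoter. Its level was 20.4 and 20.8 RPKM in unstimulated and 94.7 and 91.7 RPKM in stimulated control cells. Cd offspring had 22.6 and 22.2 RPKM, and 96.8 and 89.4 RPKM after stimulation. This was the steepest rise among the subunits by its estimate, a log2 fold change of 2.17 (SE 0.053, adjusted p = 2.49e-07, limma) in control and 2.05 (SE 0.053, adjusted p = 2.97e-07) in Cd offspring. The 95% interval in control offspring was 2.05 to 2.30 for Rel and 1.89 to 2.09 for Nfkb1, and the difference between the 2 genes was not tested.

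Nfkb2 (gene 18034, chr19:46300994-46312400), which encodes p100, the precursor of p52, and Relb (gene 19698, chr7:19606217-19629438), which encodes the usual partner of p52, form the non-canonical arm. Nfkb2 measured 28.2 and 27.4 RPKM in unstimulated and 92.4 and 99.7 RPKM in stimulated control cells, and 33.6 and 28.2 RPKM against 95.8 and 96.3 RPKM in Cd offspring. Relb had the lowest mean of the family in unstimulated cells, with 15.9 and 16.0 RPKM in control and 18.6 and 15.4 RPKM in Cd offspring, where it overlapped Nfkbib. After stimulation Relb measured 43.0 and 48.9 RPKM in control and 43.4 and 46.4 RPKM in Cd offspring. Both genes were higher in every stimulated library. The log2 fold change of Nfkb2 was 1.78 (SE 0.083) and 1.64 (SE 0.083) in control and Cd offspring, and that of Relb 1.51 (SE 0.10) and 1.40 (SE 0.10), with an adjusted p of at most 1.40e-05 in limma. The ratio of Nfkb2 to Relb RPKM was 1.74 ± 0.0419 in unstimulated and 2.09 ± 0.0790 in stimulated control cells, and 1.82 ± 0.0185 and 2.14 ± 0.0956 in Cd offspring (SD, n = 2). It was higher in every stimulated library than in the unstimulated ones of the same offspring (exact two-sided permutation test, p = 0.333, the smallest possible).

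Rela (gene 19697, chr19:5637442-5648134), which encodes p65, the main activating subunit of the canonical pathway, stood apart from the other subunits. It measured 50.5 and 49.9 RPKM in unstimulated and 46.0 and 50.8 RPKM in stimulated control cells. In Cd offspring the values were 54.0 and 44.3 RPKM, and 47.6 and 51.1 RPKM after stimulation. The groups overlapped in both kinds of offspring. The log2 fold change was -0.05 (SE 0.096, adjusted p = 0.645, limma) in control and 0.01 (SE 0.096, adjusted p = 0.910) in Cd offspring, and the 95% intervals, -0.28 to 0.17 and -0.21 to 0.24, correspond to folds of 0.824 to 1.13 and 0.863 to 1.18. Quantile normalization put Rela at -0.21 in control and -0.16 in Cd offspring, with no call. The median of all genes moved from 0.07 to -0.03 and from 0.05 to -0.04 with it.

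**Figure D2:**
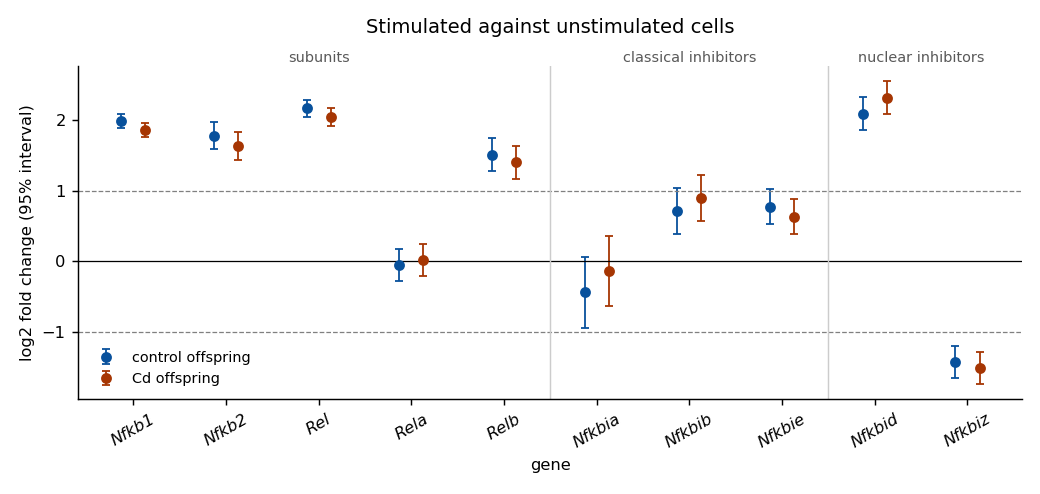
Log2 fold change on stimulation (vertical axis, log2(RPKM + 0.1) scale) of each gene in control and Cd offspring, with 95% intervals from limma and dashed lines at 2-fold. The intervals of Nfkb1, Nfkb2, Rel, Relb and Nfkbid lie above the upper dashed line, that of Nfkbiz lies below the lower one, and those of Rela and Nfkbia cross 0.

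The makeup of the subunit RNA pool differed between the states. The 5 subunits summed to 181 ± 1.45 RPKM in unstimulated and 548 ± 17.8 RPKM in stimulated control cells, and to 192 ± 13.4 and 549 ± 0.161 RPKM in Cd offspring (SD, n = 2). The share of Rela in that sum was 27.7% ± 0.0364 before and 8.83% ± 0.330 after stimulation in control offspring, and 25.5% ± 1.79 and 8.99% ± 0.451 in Cd offspring. The share of Nfkb1 went from 36.7% ± 0.114 to 48.2% ± 0.245 in control and from 38.0% ± 2.56 to 48.4% ± 0.0365 in Cd offspring. Rel held 11.4% and 17.0% of the pool in unstimulated and stimulated control cells. The ratio of Rel to Rela RPKM was 0.411 ± 0.00886 before and 1.93 ± 0.179 after stimulation in control offspring, so that the order of the pair turned. The groups did not overlap in any of these measures. With 2 libraries against 2 an exact two-sided permutation test cannot go below p = 0.333, which is the p for each of them.

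Of the classical inhibitors, which cover the nuclear entry signals of the dimers, 2 of 3 rose modestly and the third did not pass the test. Nfkbib (gene 18036, chr7:28758251-28766644), which encodes IkB beta, measured 20.2 and 18.2 RPKM in unstimulated and 31.5 and 31.7 RPKM in stimulated control cells, and 20.3 and 14.6 RPKM against 31.1 and 33.4 RPKM in Cd offspring. Nfkbie (gene 18037, chr17:45555700-45563169), which encodes IkB epsilon, measured 20.1 and 22.0 RPKM against 32.8 and 39.7 RPKM in control and 25.5 and 22.2 RPKM against 36.1 and 37.7 RPKM in Cd offspring. Each stimulated library was above each unstimulated one of the same offspring for both genes, and neither change reached 2-fold. The log2 fold change of Nfkbib was 0.72 (SE 0.14, adjusted p = 0.00257, limma) in control and 0.90 (SE 0.14, adjusted p = 0.00080) in Cd offspring, and that of Nfkbie 0.78 (SE 0.11, adjusted p = 0.000435) and 0.63 (SE 0.11, adjusted p = 0.00132). Without the Cd unstimulated replicate 6, Nfkbib stood at 1.13 in Cd offspring and passed the 2-fold limit. Its adjusted p in control offspring was 0.0149 without stimulated replicate 6, 0.0151 without stimulated replicate 7 and 0.0211 without unstimulated replicate 7, and that of Nfkbie in Cd offspring was 0.0110 without stimulated replicate 7.

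Nfkbia (gene 18035, chr12:55489409-55492647), which encodes IkB alpha, the inhibitor that is destroyed and remade in each round of signalling, was the most abundant of the family in unstimulated cells. It measured 405 and 275 RPKM in the unstimulated libraries of control offspring and 242 and 248 RPKM in the stimulated ones. In Cd offspring it measured 335 and 225 RPKM before and 251 and 248 RPKM after stimulation. The 4 stimulated libraries were close to each other, while in the unstimulated groups replicate 6 was above replicate 7 by 0.56 and 0.57 on the log2 scale. Among the 1490 genes with a mean of at least 50 RPKM, 1.48% and 1.07% showed a gap at least as large in these 2 groups. The counting error of Nfkbia was at most 1.30%, and the SD between the unstimulated libraries was 27.1% and 27.7% of the mean. The log2 fold change on stimulation was -0.44 (SE 0.21, 95% interval -0.94 to 0.05, adjusted p = 0.103, limma) in control and -0.14 (SE 0.21, 95% interval -0.64 to 0.36, adjusted p = 0.588) in Cd offspring. It ran from -0.72 without control unstimulated replicate 7 to -0.16 without replicate 6, and stood at 0.15 in Cd offspring without Cd unstimulated replicate 6, with no call in any of these fits.

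The ratio of classical inhibitor RNA to subunit RNA was lower after stimulation. In control offspring it was 2.44 and 1.75 before and 0.572 and 0.570 after stimulation. Cd offspring had ratios of 1.89 and 1.43 before and 0.579 and 0.581 after stimulation. The unstimulated values lay apart from each other with Nfkbia, and the groups did not overlap (exact two-sided permutation test, p = 0.333, the smallest possible). Nfkbia made up 89.1% ± 2.65 of the classical inhibitor RNA in unstimulated and 78.3% ± 0.967 in stimulated control cells (SD, n = 2). Against Rela, whose dimers IkB alpha holds, the RPKM of Nfkbia stood at a ratio of 6.76 ± 1.77 in unstimulated and 5.07 ± 0.265 in stimulated control cells, which did not overlap. In Cd offspring it was 5.64 ± 0.789 and 5.06 ± 0.294 (SD, n = 2), and the libraries overlapped (exact two-sided permutation test, p = 0.667).

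**Figure D3:**
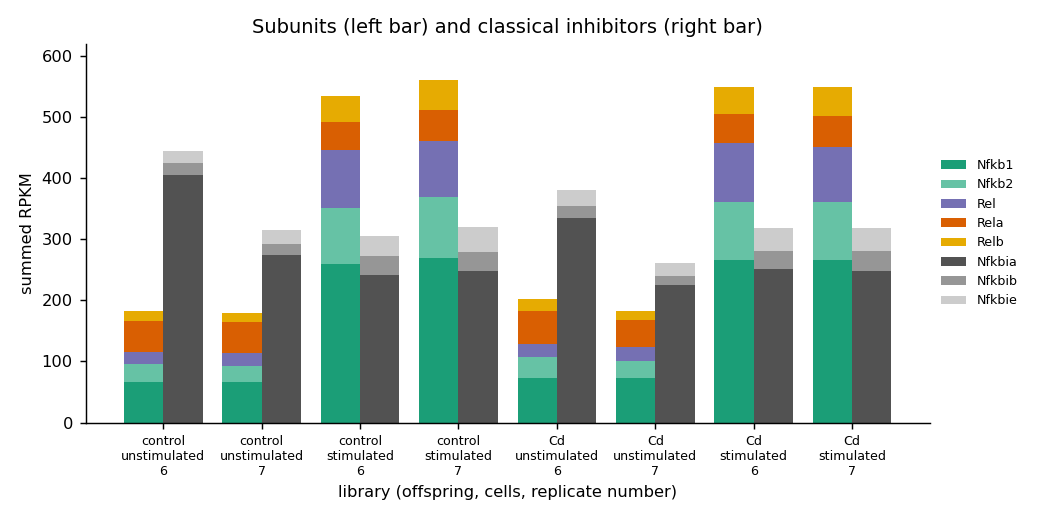
Summed RPKM of the 5 subunits (left bar) and the 3 classical inhibitors (right bar) in each library, with colours for the genes. Inhibitor RNA exceeds subunit RNA in the 4 unstimulated libraries, by 1.43 to 2.44 times, and is 0.570 to 0.581 of it in the 4 stimulated ones.

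The nuclear inhibitors, which bind p50 dimers on DNA and can repress or assist transcription depending on the gene, moved in opposite directions. Nfkbid (gene 243910, chr7:30421731-30428749), which encodes IkBNS, measured 44.4 and 45.5 RPKM in unstimulated and 185 and 200.1 RPKM in stimulated control cells. In Cd offspring it measured 45.0 and 35.5 RPKM before and 200.2 and 201 RPKM after stimulation. Nfkbiz (gene 80859, chr16:55811375-55838954), which encodes IkB zeta, measured 65.2 and 58.6 RPKM in unstimulated and 23.0 and 22.7 RPKM in stimulated control cells, and 67.7 and 55.5 RPKM against 21.6 and 21.1 RPKM in Cd offspring. No group of unstimulated libraries overlapped its stimulated counterpart for either gene. The log2 fold change of Nfkbid was 2.10 (SE 0.10, adjusted p = 2.15e-06, limma) in control and 2.32 (SE 0.10, adjusted p = 1.51e-06) in Cd offspring. That of Nfkbiz was -1.43 (SE 0.095, adjusted p = 9.23e-06) and -1.52 (SE 0.095, adjusted p = 7.28e-06). The ratio of Nfkbid to Nfkbiz was 0.728 ± 0.0679 in unstimulated and 8.43 ± 0.565 in stimulated control cells, and 0.652 ± 0.0178 and 9.39 ± 0.200 in Cd offspring (SD, n = 2).

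The order of the levels changed with stimulation. In unstimulated control cells it ran from Nfkbia (340 ± 91.9 RPKM) through Nfkb1, Nfkbiz, Rela, Nfkbid, Nfkb2, Nfkbie, Rel and Nfkbib to Relb (16.0 ± 0.0636 RPKM, SD, n = 2), and of the neighbours only Nfkbie and Rel overlapped between libraries. In stimulated control cells Nfkb1 led (264 ± 7.25 RPKM), followed by Nfkbia (245 ± 4.31 RPKM) and Nfkbid (192 ± 10.8 RPKM), and Nfkbiz was last (22.8 ± 0.250 RPKM). There Nfkb2 and Rel, and Rela and Relb, overlapped. The order of the means was the same in Cd offspring in each state, with further overlaps in unstimulated cells between Rela and Nfkbid and between Nfkbib and Relb, and with Rela and Relb apart in stimulated cells.

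Prenatal Cd was examined next, first in unstimulated cells, to ask whether the family differed at rest. None of the 10 genes passed an adjusted p under 0.05 in limma, where 0.896% of all genes did. At an unadjusted p under 0.05 there was 1, Nfkb1, against 13.9% of all genes. Nfkb1 measured 72.9 and 72.7 RPKM in Cd and 67.0 and 65.9 RPKM in control offspring, a log2 difference of 0.13 (SE 0.043, 95% interval 0.03 to 0.23, adjusted p = 0.251, limma). In 4 of 10 genes, Nfkb1, Nfkb2, Rel and Nfkbie, the Cd libraries were both above the control ones, and in 0 of 10 both below. Over all genes 42.3% did not overlap, 22.3% higher and 20.0% lower. For Rel the log2 difference was 0.12 (95% interval -0.0048 to 0.24), for Nfkb2 0.15 (-0.05 to 0.34) and for Nfkbie 0.18 (-0.07 to 0.43).

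The widest difference by its estimate was that of Nfkbia, -0.28 on the log2 scale with a 95% interval of -0.78 to 0.22. Without Cd unstimulated replicate 6 it was -0.57 and without Cd unstimulated replicate 7 it was 0.01, so that its size depended on single libraries. The unstimulated libraries of control offspring lay about as far apart for Nfkbia, by 0.56 on the log2 scale against 0.57 in Cd offspring. In the Cd unstimulated group all 10 genes were higher in replicate 6 than in replicate 7, where 54.2% of all genes tested were. In the other groups 6, 2 and 3 of the 10 were higher in replicate 6. The estimates of Rela, Relb, Nfkbib, Nfkbid and Nfkbiz lay between -0.17 and 0.08, and their libraries overlapped.

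In stimulated cells the levels in Cd and control offspring were closer still. None of the 10 genes was called, and none of the 12605 genes tested was (0%) at an adjusted p under 0.05 in limma. At an unadjusted p under 0.05 there were 0 of the 10, against 3.28% of all genes. The log2 differences lay between -0.10 for Nfkbiz and 0.06 for Nfkbid, the 2 genes whose libraries did not overlap, one lower and one higher in Cd offspring. Over all genes 36.7% did not overlap. The 95% intervals were narrowest for Nfkb1, -0.09 to 0.11, and widest for Nfkbia, -0.47 to 0.52. These intervals bound a difference of Nfkb1 to at most 1.08-fold and leave up to 1.44-fold open for Nfkbia.

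**Figure D4:**
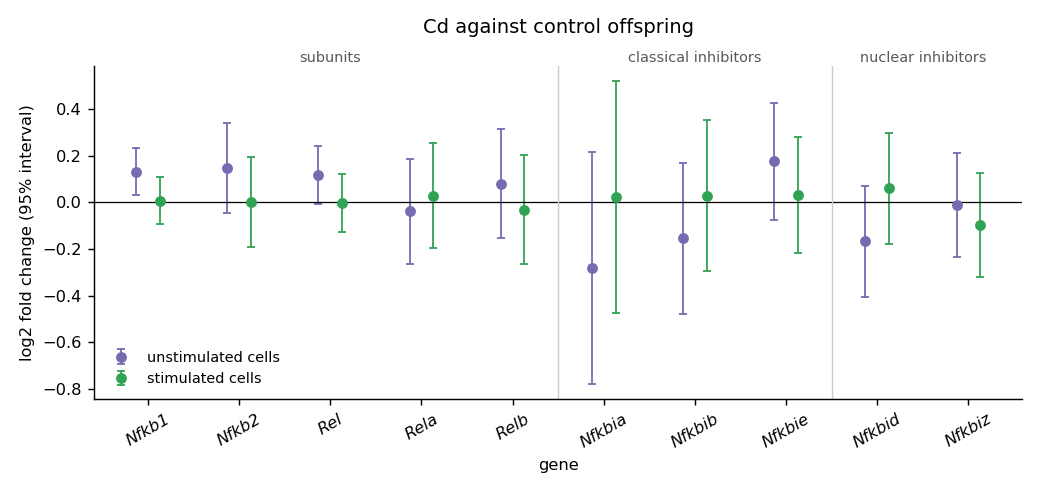
Log2 difference between Cd and control offspring (vertical axis, log2(RPKM + 0.1) scale) of each gene in unstimulated and in stimulated cells, with 95% intervals from limma. In unstimulated cells the interval of Nfkb1, 0.03 to 0.23, is the one that leaves out 0, with an adjusted p of 0.251, and Nfkbia has the widest intervals.

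The response to stimulation itself was compared between Cd and control offspring by the interaction contrast, for which 0.357% of all genes passed an adjusted p under 0.05 in limma. None of the 10 genes did, and at an unadjusted p under 0.05 there were 0, against 10.6% of all genes. The lowest adjusted p, 0.519, was that of Nfkb1, with an estimate of -0.12 (SE 0.060), a smaller rise in Cd than in control offspring. The estimate was -0.12 for Rel, -0.15 for Nfkb2, -0.11 for Relb and 0.23 for Nfkbid, and the widest was 0.31 for Nfkbia, with a 95% interval of -0.40 to 1.01. The 2 Cd contrasts and this one draw on the same libraries as the stimulation contrasts and are not independent of them.

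Upstream and downstream genes of the pathway, 84 in all on 7 lists, were counted by the same rule. On stimulation 23 were higher, 5 lower and 56 not called in control offspring, and 21, 5 and 58 in Cd offspring. Over all genes 11.5% were higher and 7.17% lower in control offspring. In Cd offspring 11.4% were higher and 7.24% lower. The share of the 84 that was lower was near that of all genes. Most of the called genes were on the list of textbook NF-kB targets. Of 32 targets listed 28 were tested, and Csf2, Cd40, Ebi3 and Il4i1 were below the limit of 0.5 RPKM. Of the 28, 17 were higher and 3 lower in control and likewise in Cd offspring. The median log2 fold change was 1.86 and 1.63, beside 0.07 and 0.05 over all genes. Ccl3, Ccl4 and Cd83 had means under 0.5 RPKM in both unstimulated groups and passed that limit through the stimulated libraries. So did Il2 and Ier3, which averaged under 0.5 RPKM over the unstimulated libraries. Il2 had means of 0.610 RPKM in control and 0.290 RPKM in Cd unstimulated cells, and Ier3 of 0.518 and 0.466 RPKM. Such genes can add to the higher count only. Il2, the T cell growth factor, went from 0.703 and 0.517 RPKM to 53.0 and 50.2 RPKM in control offspring, a log2 fold change of 6.20 (SE 0.14), and Irf4, which encodes a regulator of effector T cells, changed by 7.63 (SE 0.11). At the other end Junb, an AP-1 subunit, measured 1012 and 884 RPKM in unstimulated and 116 and 124 RPKM in stimulated control cells, a log2 fold change of -2.98 (SE 0.16).

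Among the negative regulators 1 of 14 was higher and 2 were lower in control offspring, beside 11.5% and 7.17% of all genes, so that their share called was near that of all genes. Tnfaip3, which encodes the ubiquitin-editing enzyme A20 and is also on the target list, measured 248 and 174 RPKM in unstimulated and 68.2 and 65.2 RPKM in stimulated control cells. In Cd offspring it measured 208 and 126 RPKM against 68.6 and 63.0 RPKM. Its log2 fold change was -1.64 (SE 0.24, adjusted p = 0.000583, limma) in control and -1.30 (SE 0.24, adjusted p = 0.00201) in Cd offspring, where it was not called without Cd stimulated replicate 7 (adjusted p = 0.0142) or Cd unstimulated replicate 6 (-0.93). As for Nfkbia, replicate 6 was above replicate 7 in both unstimulated groups, a likeness that was noticed after the values were seen. Nlrc3, a restrainer of T cell signalling, had a log2 fold change of -1.59 and -1.65, and Rnf11, a partner of A20, 1.15 in control and 0.83, under the 2-fold limit, in Cd offspring.

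Of 12 genes that link the receptor to IKK, 1 was higher and 1 lower in control offspring, again near the 18.7% called over all genes. Prkcq, the protein kinase C of the T cell synapse, measured 157 and 159 RPKM in unstimulated and 73.9 and 72.4 RPKM in stimulated control cells, a log2 fold change of -1.11 (SE 0.050). Traf6, a ubiquitin ligase upstream of IKK, had a log2 fold change of 1.03 in control and 0.86 in Cd offspring, where it was not called. Of 9 IKK kinases and adaptors 1 was higher, Tbkbp1, at 0.534 and 0.625 RPKM in unstimulated and 1.56 and 2.28 RPKM in stimulated control cells, and it was not called in Cd offspring. None of 11 linear ubiquitin, TRAF and IAP genes was called in either (3 higher and 3 lower at an adjusted p under 0.01 alone in control offspring). The list of the ligase that destroys the inhibitors holds 7 genes, of the ligase and of its partners and regulators. Of these 1 was called, Cops5, with 1.13 in control and 1.22 in Cd offspring. Among 6 other IkB-like and partner genes 2 were called. They were Bcl3, a nuclear IkB relative, with 1.02 and 1.13, and Nkrf, a repressor, with 1.40 and 1.23. Traf6, Bcl3, Tbkbp1 and Cops5 were near the limits in control offspring. Traf6 and Bcl3 were not called with median-of-ratios scaling (0.95 and 0.95), quantile normalization (0.88 and 0.90) or a pseudocount of 1 RPKM (0.996 and 0.977), Cops5 with quantile normalization (0.98), and Tbkbp1 with no filter, no trend or a pseudocount of 1 RPKM. Traf6 stood at 0.96 without stimulated replicate 6 and 0.98 without unstimulated replicate 7, and Bcl3 at 0.91 without stimulated replicate 7 and 0.96 without unstimulated replicate 7. The adjusted p of Tbkbp1 was 0.0102 or more in the fits without any 1 of the control libraries or of the Cd unstimulated ones. In Cd offspring, Prkcq stood at -0.97 without stimulated replicate 7.

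**Figure D5:**
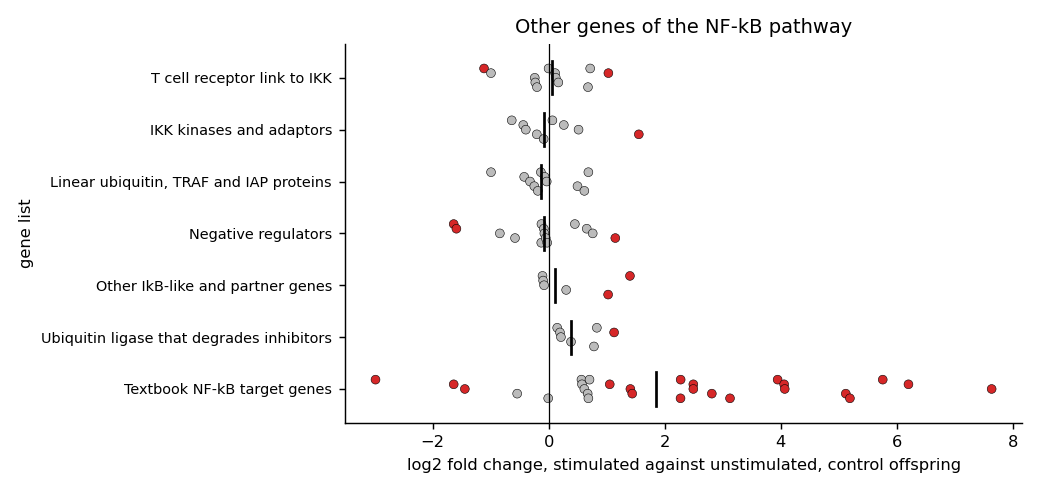
Log2 fold change on stimulation in control offspring (horizontal axis) of the other pathway genes, with a row for each list, red points for called genes (adjusted p under 0.01, change above 2-fold), grey points for the rest and a line at the median of the list. The medians lie between -0.13 and 0.39 for 6 lists and at 1.86 for the textbook targets.

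For Cd against control, 1 of the 84 genes was called in unstimulated cells, Il2, with 0.271 and 0.308 RPKM in Cd and 0.703 and 0.517 RPKM in control offspring, a log2 difference of -0.86 (SE 0.14, adjusted p = 0.0409, limma). Over all genes 0.896% were called in that comparison. The Il2 values rest on 5 to 12 reads a library, and the gene passed the limit of 0.5 RPKM through the stimulated libraries. The call was lost in most of the alternatives, over which the adjusted p ran from 0.0272 to 0.482, and among them were a pseudocount of 0.5 RPKM (-0.49), voom (adjusted p = 0.366), and the fits without control unstimulated replicate 6 (adjusted p = 0.144), Cd unstimulated replicate 6 (0.0862) or replicate 7 (0.0879) and without any 1 of the 4 stimulated libraries (0.104 to 0.114). At an unadjusted p under 0.05 there were 7 of the 84, beside 13.9% of all genes. In stimulated cells and for the difference in response 0 of 84 were called, with and without voom, and 2 and 6 had an unadjusted p under 0.05, beside 3.28% and 10.6% of all genes. None of these 3 shares at an unadjusted p under 0.05 was above that of all genes.

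For each of the 10 genes, the other gene with the most similar course over the 8 libraries was sought among 8624 genes with a mean of at least 5 RPKM, by the root mean square difference of the log2 values after each was centred on its mean. Nearest to Nfkb1 was Lap3 (0.05), to Nfkb2 Kdm2b (0.05), to Rel Igf1r (0.05), to Relb Mogs (0.07), to Nfkbid Mettl1 (0.05) and to Nfkbiz Frat1 (0.06). Rela lay nearest to Abhd17a (0.03), Nfkbib to Chpf (0.06) and Nfkbie to Hps4 (0.03). The most distant partner was that of Nfkbia, Card19 (0.10), over the same 8 libraries. Within the family the closest pairs were Nfkb1 and Rel (0.10) and Nfkb1 and Nfkb2 (0.13), followed by Nfkb2 and Relb (0.13), and the farthest were Nfkbid and Nfkbiz (1.84). The 8 libraries share the step between unstimulated and stimulated cells, and the distances include it.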

How the data were processed

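The table of RNA sequencing values that the authors deposited was used, with groups from the sample labels. The authors used Subread for alignment to mm10 and featureCounts for counting on RefSeq transcripts. The values deposited are log2(RPKM + 1) with 0.0001 added, as read from the values themselves, and the step from counts is not given in the sources used here. They were turned back into RPKM, and the reads behind each value, with the library totals, were worked out from the whole-read steps of low genes, for 17793 of 17794 genes above 0 in at least 2 libraries (within 0.01 reads).

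Genes with a mean of at least 0.5 RPKM were fitted with limma 3.58.1 (R 4.3.3) on log2(RPKM + 0.1), in one model of 4 group means with a trend in the prior spread (4 residual degrees of freedom before moderation), and adjusted after Benjamini and Hochberg. Fold changes on that scale understate those of low genes. Calls needed an adjusted p under 0.01 with a change above 2-fold for stimulation and an adjusted p under 0.05 for Cd and the interaction. The fit was tested on simulated data. Alternatives were other pseudocounts, filters, scalings and priors, voom on the recovered reads, replicate blocks, and each library left out in turn.

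The 10 genes, the pathway and marker lists and the comparisons were chosen with earlier results of these data known. Of each pathway list, the up to 2 highest and 2 lowest genes called in control offspring were named, and the gene most like each of the 10. Positions and promoter windows are from RefSeq, GRCm38.p6. Python 3.11.15, pandas 2.3.3 and matplotlib 3.10.9 were used.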

Additional observations from a re-analysis of the deposited data

How the results depend on the processing

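The number of the 10 genes called was 6 for stimulation in control offspring under every alternative run, 6 to 7 in Cd offspring (7 without Cd unstimulated replicate 6, where Nfkbib passed with 1.13), and 0 for both Cd comparisons and for the difference in response under every alternative run. No called gene changed direction. With 2 libraries a group, a fit that leaves 1 out assumes that the lone library varies like the other groups. For the Cd comparisons and the difference in response, these libraries did not exclude differences within the intervals given in the report.

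The correlation of replicate differences between groups was -0.11 to 0.06 over 12605 genes. With 2 libraries a group, this cannot decide whether libraries with the same replicate number came from the same animal. With the replicate block by number or by exposure and number, 6 of the 10 genes were called in control and 6 in Cd offspring, and the number of all genes called for the difference in response was 25 with the block by exposure and number, against 45 without.

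The background over all genes moved more. For Cd against control in unstimulated cells, 113 genes were called, against 65 with no filter, 52 with only the libraries of the comparison, 14 with no trend, 211 with voom on the recovered reads, 19 without control unstimulated replicate 6 and 67 without replicate 7. In stimulated cells 0 were called, against 9 with no filter, 2 with no trend and 3 without control stimulated replicate 7. For the difference in response the 45 became 28 with no filter, 4 with no trend, 111 with voom, 2 without Cd stimulated replicate 7, 3 and 28 without control stimulated replicates 6 and 7, and 27 without control unstimulated replicate 6. The cause was not tested. The median log2 fold change of all genes on stimulation in control offspring was 0.07, -0.00 with median-of-ratios scaling and -0.03 with quantile normalization.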
